A study of Mus musculus with 14 samples.

Results

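The 9 genes studied here act in the making of meiotic DNA double-strand breaks and in the strand exchange that follows, and were read from the count tables of this series: Prdm9, Spo11, Rec114, Mei4, Ankrd31, Dmc1, Meiob, Spata22 and Hsf2bp. They were taken by gene symbol, and all 9 were present once in each of the 2 count tables, out of 31111 genes that both tables list. All 9 passed the filter on low counts in every comparison.

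The tables hold polyadenylated RNA from 14 libraries of germ cells sorted from testes of Dnmt3C KO/KO mice, which lack the rodent DNA methyltransferase DNMT3C (KO), and of wild-type (WT) littermates on the C57Bl6/J background. Spermatogonia (Spg), which the study describes as premeiotic, came from animals of postnatal day 14. They were sorted as EpCAM-positive, β2M-negative live cells, with 3 KO and 3 WT libraries. Spermatocytes (Spc), the cells in meiosis, came from animals older than 20 days and were sorted by Hoechst signal and size, with 4 KO and 4 WT libraries. Stage, age and sort changed together, so they cannot be told apart, and the study describes a meiotic arrest in the KO testis, so that the sorted KO Spc lack later cells that the WT sort holds.

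At the start of meiosis PRDM9, a histone methyltransferase with a long zinc-finger array, binds DNA motifs and marks the sites where breaks will fall. SPO11, a topoisomerase-like enzyme, cuts there with the help of REC114, MEI4 and ANKRD31 on the chromosome axis. The cut ends are resected to single-stranded DNA, which MEIOB and SPATA22 bind, and HSF2BP acts through BRCA2 to load the recombinases, of which DMC1 is the meiosis-specific form that pairs the end with the homologous chromosome.

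On GRCm38 with the GENCODE M21 annotation, the genes lie at chr17:15543079-15564354 on the minus strand (Prdm9), chr2:172977700-172993576 on the plus strand (Spo11), chr9:58652850-58743964 on the minus strand (Rec114), chr9:81863670-82206007 on the plus strand (Mei4) and chr13:96748272-96910039 on the plus strand (Ankrd31). Dmc1 lies at chr15:79561497-79605109 on the minus strand, Meiob at chr17:24804289-24839788 on the plus strand, Spata22 at chr11:73329741-73346044 on the plus strand and Hsf2bp at chr17:31944769-32036349 on the minus strand. They are all protein-coding, with 1.27 to 6.21 kb of merged exon. Spata22 shares 1025 of its 1274 exon bases with Gm49340, a gene annotated on the same strand, so that reads of these exons could be counted for either. Rec114 shares 344 of 1277 exon bases with Nptn and Hsf2bp shares 54 bases with Rrp1b, both on the opposite strand, and the counting used strand.

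RefSeq promoter windows on GRCm38.p6, 250 bases before to 50 bases after a transcript start, matched 7 of the 9 symbols, with 2 starts for Prdm9. A pair of motifs is marked in them, searched on both strands because the factors that bind them are known at promoters of germline and cell cycle genes: the NRF1 type, GCGC followed by any 2 bases and GCGC again, and GCGGGAA, the E2F type, which do not overlap in these windows. The NRF1-type letters were in windows of 3 of the 7 genes, Prdm9, Spata22 and Hsf2bp, and in 6.23% of 32851 windows of all genes. The E2F-type letters were in windows of 4 of the 7, those 3 and Rec114, and in 4.6% of all windows. The 4 windows that hold either set are shown 5′ to 3′ on the strand of the gene, with the matches in capitals, since among their genes Prdm9 and Rec114 were higher in KO Spc, Hsf2bp was lower and Spata22 did not pass the test.
Prdm9, chr17:15564305-15564604, minus strand: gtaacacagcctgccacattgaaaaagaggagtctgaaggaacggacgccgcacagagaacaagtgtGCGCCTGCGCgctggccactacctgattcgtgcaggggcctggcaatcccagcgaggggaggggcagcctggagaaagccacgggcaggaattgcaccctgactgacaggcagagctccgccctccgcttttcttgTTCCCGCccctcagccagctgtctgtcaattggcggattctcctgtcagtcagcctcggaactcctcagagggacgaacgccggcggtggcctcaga
Rec114, chr9:58741510-58741809, minus strand: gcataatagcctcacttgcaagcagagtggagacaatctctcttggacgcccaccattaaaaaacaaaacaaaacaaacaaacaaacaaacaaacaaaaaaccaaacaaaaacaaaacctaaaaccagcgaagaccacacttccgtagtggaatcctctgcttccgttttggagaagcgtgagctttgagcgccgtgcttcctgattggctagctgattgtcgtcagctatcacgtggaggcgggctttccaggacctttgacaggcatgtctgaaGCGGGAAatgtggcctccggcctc
Spata22, chr11:73329491-73329790, plus strand: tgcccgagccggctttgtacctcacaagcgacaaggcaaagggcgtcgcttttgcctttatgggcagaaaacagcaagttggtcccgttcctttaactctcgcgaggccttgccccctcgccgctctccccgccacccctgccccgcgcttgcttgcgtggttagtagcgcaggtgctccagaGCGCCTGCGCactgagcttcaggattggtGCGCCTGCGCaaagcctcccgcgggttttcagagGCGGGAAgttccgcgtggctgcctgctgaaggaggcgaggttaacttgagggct
Hsf2bp, chr17:32034459-32034758, minus strand: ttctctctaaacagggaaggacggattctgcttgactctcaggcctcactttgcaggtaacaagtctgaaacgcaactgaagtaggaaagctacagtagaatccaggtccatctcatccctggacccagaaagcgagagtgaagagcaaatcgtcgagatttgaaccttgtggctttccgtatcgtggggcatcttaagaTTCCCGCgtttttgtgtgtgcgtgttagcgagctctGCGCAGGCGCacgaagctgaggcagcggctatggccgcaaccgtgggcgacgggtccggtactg
In the Spata22 window the NRF1-type match occurs 2 times, with first bases 67 and 38 bases before the start. In the Hsf2bp window it begins 14 bases before the start, and in the Prdm9 window 183 bases before it. Of the other letters searched, TGACGTCA (the full CRE) was in none of the 7 genes' windows and in 1.79% of all windows. CACGTG (E-box) was in the Rec114 window and in 7.15% of all, CNCCTCAG (STRA8) was in 1 Prdm9 window and in 7.94% of all, and AACNGNC (MYB) was in windows of Prdm9 and Mei4 and in 32.8% of all.

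Levels are given as counts per 1000000 counts (CPM) on a TMM scale over the 14 libraries, which held 40555726 to 53323651 counts each. Several libraries stood apart from their groups. Spc replicates 1 and 4 were close to each other in both genotypes (chi-square per feature 12.1 in KO and 15.7 in WT, against 139.0 to 307.7 for the other pairs of Spc libraries of a genotype), more than sampling noise but less than the other pairs, and they were kept as separate samples. WT Spc replicate 3 had the lowest sum of 10 pachytene markers of its group (12582 CPM, against 19761 to 22311 CPM) and the highest sum of the 7 spermatid markers that both tables list (1215 CPM, against 58.7 to 424.6 CPM). It also had the highest WT sums of 10 spermatogonial markers (435 CPM, then 379 CPM in replicate 2 and 171 to 179 CPM in replicates 4 and 1), 10 early meiotic markers (4079 CPM, against 3416 to 3639 CPM) and 8 Sertoli markers (213 CPM, against 69.8 to 82.4 CPM). KO Spc replicates 2 and 3 had higher spermatogonial sums (1069 and 1065 CPM) than replicates 1 and 4 (498 and 480 CPM). Dnmt3c RNA was 0.991 to 1.16 CPM in KO Spc and 0.332 to 0.87 CPM in WT Spc, and 1.021 to 1.99 CPM in KO Spg and 0.965 to 1.54 CPM in WT Spg. A count over the whole gene does not show whether the edited part was read, and Dnmt3c is a close copy of Dnmt3b, so it did not check the genotype labels.

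The first comparison asked how the 9 genes are expressed in the sorted Spg and whether the loss of DNMT3C changed them there. The sum of 10 early meiotic markers was 2412 to 2543 CPM in WT Spg and 1851 to 2522 CPM in KO Spg. It was 3416 to 4079 CPM in WT Spc. The Spg libraries thus also held RNA of early meiotic genes, so levels before meiosis cannot be read apart. All 9 genes were read in every Spg library. Mei4 had the lowest mean CPM in both genotypes, with 462 to 795 counts. Spata22 was below it in KO replicates 2 and 3 and WT replicate 3, and Spo11 in KO replicate 3 and WT replicate 3. Per kb of exon, which allows levels of genes to be compared, Dmc1 was the highest in WT Spg with 34.8 ± 6.85 CPM per kb (SD, n = 3), and its libraries all lay above those of Meiob, the next in order. Meiob (18.0 ± 6.59 CPM per kb) overlapped with Ankrd31 (16.3 ± 1.17 CPM per kb), and from Prdm9 (12.9 ± 1.30 CPM per kb) through Spata22, Rec114, Hsf2bp and Spo11 to Mei4 (2.99 ± 0.673 CPM per kb) each neighbour in the order overlapped with the next.

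No member passed the test between KO and WT Spg (edgeR quasi-likelihood test, Benjamini-Hochberg adjusted over 21580 features, threshold 0.01), where 0.0741% of all features passed. DESeq2 called 0 as well, and 2 had an unadjusted p under 0.05, Spo11 and Ankrd31. Spo11 was 29.0, 34.0 and 12.3 CPM in WT replicates 1 to 3 and 16.9, 13.0 and 10.0 CPM in KO. The groups overlapped, because WT replicate 3 was as low as the KO libraries, and the log2 fold change was -0.96 (SE 0.391, edgeR adjusted p = 0.621). Within the same-numbered pairs Spo11 was lower in KO in 3 of 3, and the fit with the replicate number as a block called 0 of the 9 genes as well. The sum of the pachytene markers was also lower in KO, at 249 to 279 CPM against 454 to 2344 CPM in WT, with WT replicate 3 the lowest of its group. The part of the pachytene markers in the Spo11 values was not tested.

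Ankrd31 was 109.4, 97.6 and 96.0 CPM in WT Spg and 76.1, 89.8 and 56.7 CPM in KO Spg. All KO values lay below all WT values, as for 6.87% of all features, and the log2 fold change was -0.48 (SE 0.176, edgeR adjusted p = 0.512). Prdm9 was 50.6, 54.9 and 61.7 CPM in WT and 70.5, 96.1 and 54.8 CPM in KO, and Rec114 was 13.7, 13.8 and 18.9 CPM in WT and 15.96, 19.5 and 24.1 CPM in KO. Both genes overlapped between genotypes, with log2 fold changes of 0.37 and 0.33, and Rec114 was higher in KO in 3 of 3 same-numbered pairs while Prdm9 was higher in 2 of 3. Mei4 was the most even of the 9 in KO Spg, at 12.8, 12.8 and 12.7 CPM, inside the WT range of 9.19 to 14.5 CPM. For the other 4 genes, Dmc1, Meiob, Spata22 and Hsf2bp, the genotypes overlapped and the log2 fold changes were between -0.28 and 0.05. Meiob and Spata22 varied together between Spg libraries, Meiob by 2.44 times and Spata22 by 2.03 times from the lowest to the highest KO library, and KO replicate 1 was the highest for both. That library also had the highest sum of 8 Sertoli markers. This sum was 868, 335 and 289 CPM in KO Spg replicates 1 to 3 and 672, 335 and 182 CPM in WT Spg. The part of Sertoli RNA in the Spg values was not tested.

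**Figure D1:**
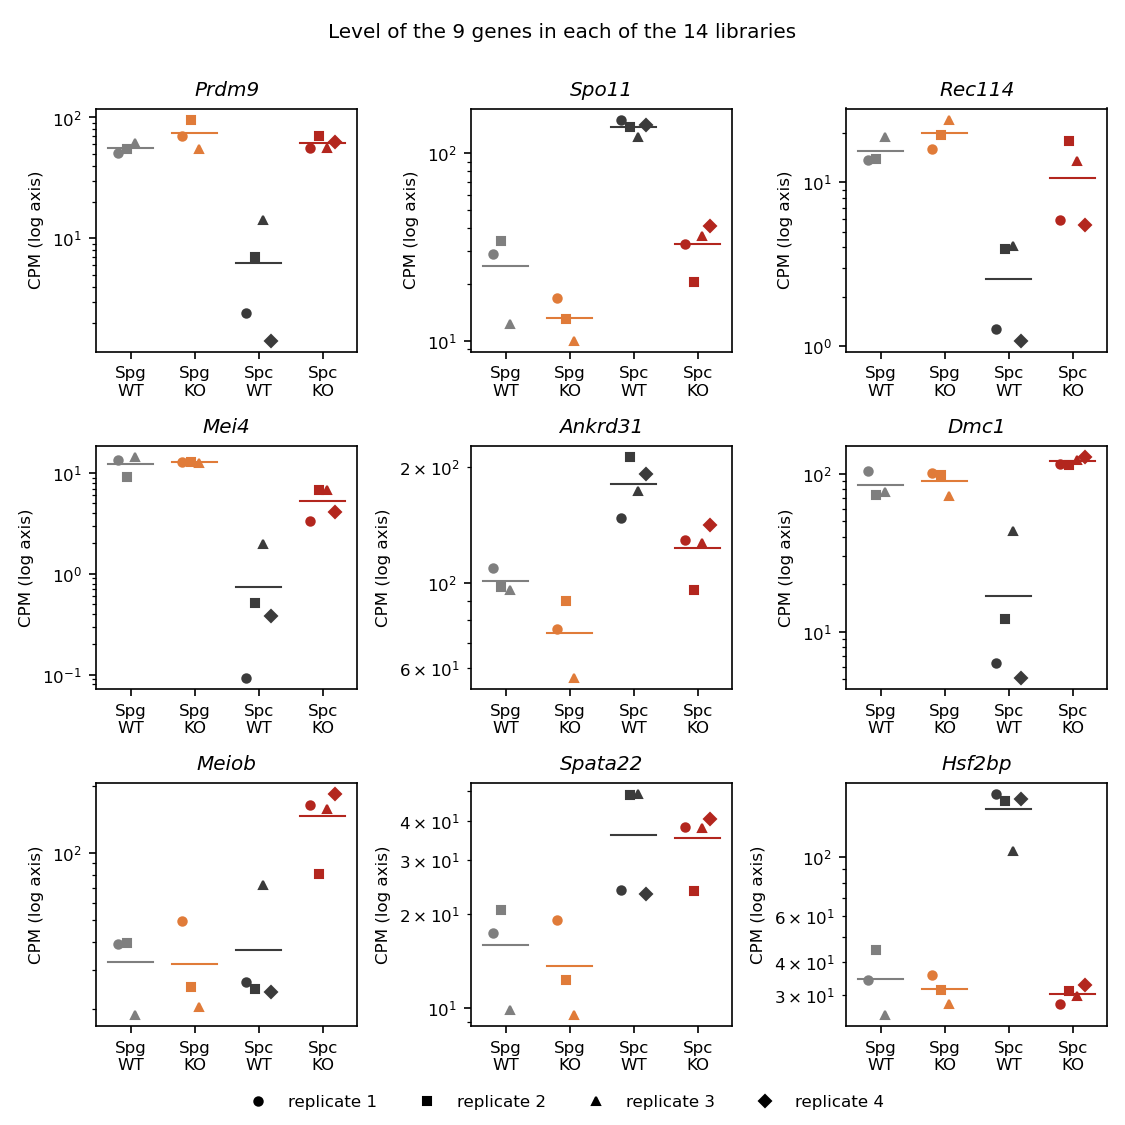
CPM (log axis) of the 9 genes in each library, by stage and genotype; symbols mark the replicate and the line the group mean. WT Spc are low for Prdm9, Rec114, Mei4 and Dmc1 and high for Spo11 and Hsf2bp, while KO Spc stay near the Spg levels for Prdm9 and Hsf2bp.

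In Spc the comparison of genotypes asked how the break and strand exchange genes stood in meiotic cells without DNMT3C. Of the 9, 5 rose in KO, Prdm9, Mei4, Rec114, Dmc1 and Meiob, and 2 fell, Spo11 and Hsf2bp, while Ankrd31 and Spata22 did not pass the test. The labels do not say whether the closely alike replicates 1 and 4 are separate animals, and with these summed to 1 library in each genotype 4 members were called, without Mei4, Rec114 and Meiob. Among all 22848 features 27.4% were called higher and 30.1% lower, so that 2 of 9 lower was no larger a share than the background. The median log2 fold change of the 9 was 2.03, beside 0.11 for all genes. In bulk RNA, fewer cells of a type and less RNA per cell cannot be told apart.

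Prdm9 was 2.41, 7.08, 14.1 and 1.43 CPM in WT Spc replicates 1 to 4 and 56.4, 69.9, 56.4 and 63.0 CPM in KO. The lowest KO library was 4.004 times the highest WT library, WT replicate 3. The KO mean of 61.4 ± 6.46 CPM (SD, n = 4) was 9.83 times the WT mean of 6.25 ± 5.78 CPM (log2 fold change 3.34, SE 0.621, edgeR adjusted p = 0.000934). WT replicate 3 raised the WT mean, and over all alternatives the log2 fold change ran from 2.98 to 4.10. The KO mean was close to the Spg levels.

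Spo11, the gene of the cutting enzyme, went the other way. It was 150.7, 136.9, 122.4 and 141.1 CPM in WT Spc and 32.6, 20.6, 36.3 and 40.8 CPM in KO Spc. The groups were far apart, with a WT mean 4.23 times the KO mean (log2 fold change -2.06, SE 0.242, edgeR adjusted p = 6.88e-05).

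Rec114 and Mei4, of the same machinery, were higher in KO Spc instead. Rec114 was 1.27, 3.92, 4.07 and 1.08 CPM in WT (31 to 170 counts) and 5.86, 17.8, 13.6 and 5.52 CPM in KO. The lowest KO library, replicate 4, was 1.36 times the highest WT library, and KO replicates 2 and 3, which also had the higher spermatogonial marker sums, were the highest (log2 fold change 2.08, SE 0.580, edgeR adjusted p = 0.00865). Mei4 was the least abundant member, with 3, 17, 83 and 11 counts in WT, or 0.0926, 0.512, 1.99 and 0.383 CPM, and 3.38, 6.75, 6.77 and 4.09 CPM in KO. The groups did not overlap (log2 fold change 2.84, SE 0.750, edgeR adjusted p = 0.00659). WT replicate 3 was again the WT library nearest to KO. Both calls are lost when 1 of several libraries is left out. For Mei4 these are KO replicate 2, 3 or 4 or WT replicate 2 or 4 (adjusted p up to 0.0212). For Rec114 they are KO replicate 2 or 3 or WT replicate 1, 2 or 4 (adjusted p up to 0.0273). Over all alternatives the log2 fold changes ran from 2.44 to 4.01 for Mei4 and from 1.73 to 2.72 for Rec114. The opposite-strand neighbour of Rec114, Nptn, was also higher in KO Spc, at 71.4 to 118.0 CPM against 6.33 to 28.7 CPM in WT, and its part in the Rec114 counts was not tested.

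Ankrd31 was 147.2, 212.7, 173.0 and 192.2 CPM in WT Spc and 129.5, 95.7, 126.7 and 141.6 CPM in KO Spc. Every KO library lay below every WT library, by a ratio of means of 1.47 (log2 fold change -0.53, SE 0.193, edgeR adjusted p = 0.0303), short of the threshold of 0.01 although DESeq2 called it (adjusted p = 0.00762). Scaled by library totals, which moved the median of all genes from 0.11 to 0.79 on the log2 scale, Ankrd31 was at 0.15, still below that median. Without overlap between genotypes were thus 5 members higher in KO and 3 lower, beside 33.7% and 33.8% of all features.

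Of the strand exchange genes, Dmc1 was 6.39, 12.1, 43.8 and 5.11 CPM in WT Spc and 115.5, 114.2, 122.0 and 128.2 CPM in KO Spc. The KO libraries were within 1.12 times of each other while the WT libraries spread over 8.56 times, with replicate 3 the highest. The ratio of means was 7.12 (log2 fold change 2.88, SE 0.614, edgeR adjusted p = 0.00206). Without WT replicate 3 the log2 fold change was 3.96.

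Meiob and Spata22, whose proteins work as a complex, parted in KO Spc. Meiob was 26.5, 24.7, 72.4 and 23.9 CPM in WT and 164.7, 80.4, 157.8 and 184.3 CPM in KO. Only WT replicate 3 came near the lowest KO library, replicate 2, and the mean rose 3.98 times (log2 fold change 2.03, SE 0.412, edgeR adjusted p = 0.00158). With replicates 1 and 4 summed, Meiob no longer passed (log2 fold change 1.80, adjusted p = 0.0129). Spata22 was 24.0, 48.5, 48.9 and 23.3 CPM in WT and 38.3, 23.8, 38.0 and 40.8 CPM in KO. The genotypes overlapped over nearly their whole range, and the log2 fold change was -0.00 (SE 0.313, edgeR adjusted p = 0.996), with a direction that turned under several alternatives, library totals among them (0.61, below the median of all genes at that scaling). Gm49340, which shares its exons, was at 18.5 to 38.1 CPM in WT and 20.7 to 38.9 CPM in KO, and the counts of the 2 genes added together gave 0.11 (edgeR adjusted p = 0.765).

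Hsf2bp, the gene of the BRCA2 partner, fell. It was 173.6, 163.7, 105.7 and 166.4 CPM in WT Spc and 27.8, 31.2, 29.9 and 32.9 CPM in KO Spc. The WT mean of 152.4 ± 31.4 CPM (SD, n = 4) was 5.005 times the KO mean of 30.4 ± 2.18 CPM (log2 fold change -2.31, SE 0.218, edgeR adjusted p = 1.9e-05). Within WT, replicate 3 was the lowest. Its opposite-strand neighbour Rrp1b differed in the other direction, at 14.1 to 39.4 CPM in WT and 43.7 to 65.6 CPM in KO.

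**Figure D2:**
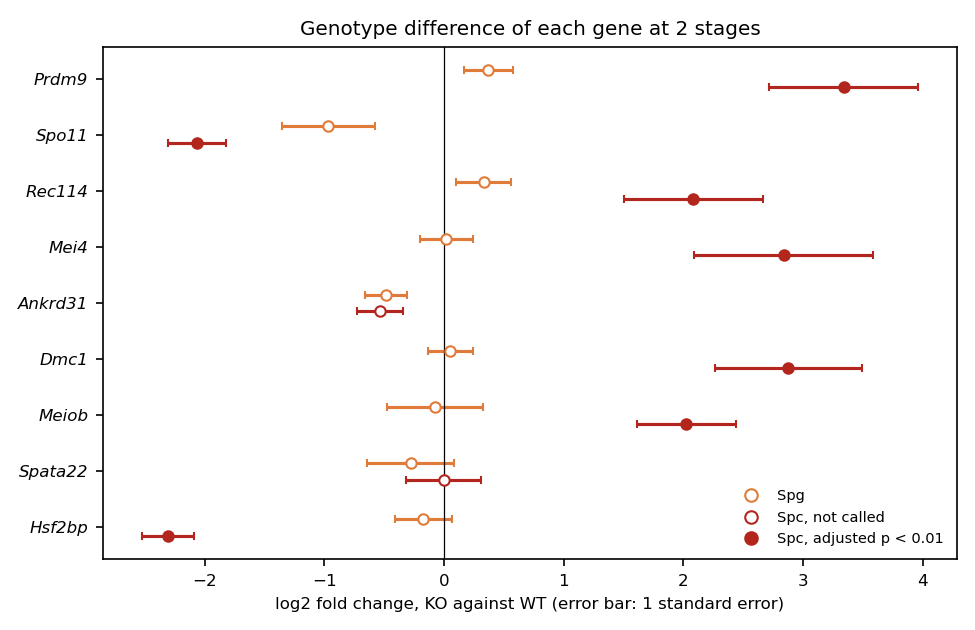
Log2 fold change of KO against WT for each gene in Spg and Spc, with 1 standard error; filled points passed the adjusted p of 0.01. No Spg point passed, and in Spc 5 genes lie between 2.03 and 3.34, Spo11 and Hsf2bp lie at -2.06 and -2.31, and Ankrd31 and Spata22 did not pass.

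Markers of other cells moved with these results. The pachytene marker sum was 381 to 689 CPM in KO Spc and 12582 to 22311 CPM in WT Spc, and 9 of its 10 genes were called lower, with Ldhc, Ybx2 and Hspa2 the most abundant. All 8 spermatid markers in the Spc table were called lower in KO. Of the 10 early meiotic markers, which include Stag3, Sycp2 and Sycp1 as the most abundant, 2 were called higher and 2 lower, and their sum was 2360 to 3193 CPM in KO and 3416 to 4079 CPM in WT. Of 10 spermatogonial markers, led by Dmrt1, Uchl1 and Kit, 7 were called higher and 1 lower in KO. All 6 Leydig markers (57.3 to 356 CPM in KO, 14.1 to 30.4 CPM in WT) and all 6 macrophage markers (26.7 to 145 CPM against 3.17 to 7.14 CPM) were higher in KO, as were 3 of 5 peritubular and 2 of 8 Sertoli markers, with Cyp17a1, Csf1r, Acta2 and Aard the most abundant of these lists. The sum of 5 erythroid markers, led by Alas2, was 1.2004 to 11.9 CPM in KO and 1.51 to 7.59 CPM in WT. The part of these shifts in the values of the 9 genes was not tested. Without WT Spc replicate 3 and KO Spc replicate 2 together, 6 members were called, all but Rec114 of the 7.

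The other genes of the pathway, 49 in a list of break formation, end processing, single-strand DNA cover and recombinase loading, also went both ways in Spc, with 12 called higher, 13 called lower and 24 not called, shares no larger than the 27.4% and 30.1% of all features. Their median log2 fold change was -0.01, beside 0.11 for all genes. Among 9 genes of break formation 3 were higher and 1 lower: Hells, a chromatin remodeller that works with PRDM9, rose most (308 to 500 CPM in KO, 36.7 to 120.8 CPM in WT, log2 fold change 2.65), and Ewsr1, a partner of PRDM9, fell (384 to 427 CPM against 783 to 1082 CPM, -1.28). Of 7 end processing genes 2 were higher and 5 not called, and the kinase gene Atm rose most (138.9 to 175.8 CPM against 8.43 to 41.6 CPM, 2.98). Of the 3 subunits of the single-strand binding protein RPA, Rpa1 alone passed the test, lower in KO (71.9 to 131.7 CPM against 272.1 to 764.3 CPM, -2.50). Among 30 genes of recombinase loading and strand exchange 7 were higher and 11 lower, and Psmc3ip, whose product is an accessory factor of DMC1, fell most (30.7 to 39.3 CPM against 190.3 to 305.6 CPM, -2.90). In Spg 0 of the 49 were called by edgeR and 0 by DESeq2, and 1 had an unadjusted p under 0.05.

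The stage comparison in WT asked which of the genes differ between Spg and Spc when meiosis proceeds. Of the 9, 4 fell in WT Spc, Mei4, Prdm9, Rec114 and Dmc1, and 3 rose, Spo11, Hsf2bp and Ankrd31, while Meiob and Spata22 did not pass (7 called in all, 28.9% of 25318 features being called higher and 22.5% lower). From WT Spg to WT Spc, the mean of Mei4 fell from 12.3 ± 2.77 to 0.744 ± 0.848 CPM (log2 fold change -4.02, SE 0.667, edgeR adjusted p = 0.000163). The mean of Prdm9 fell from 55.7 ± 5.60 to 6.25 ± 5.78 CPM (-3.15, SE 0.554, edgeR adjusted p = 0.000249). Rec114 fell from 15.5 ± 2.95 to 2.58 ± 1.63 CPM (-2.58) and Dmc1 from 84.6 ± 16.7 to 16.8 ± 18.2 CPM (-2.33). WT Spc replicate 3 was the highest WT Spc library for each of these genes. Over all alternatives the log2 fold changes ran from -5.20 to -3.65 for Mei4 and from -3.92 to -2.81 for Prdm9. They ran from -3.30 to -2.31 for Rec114 and from -3.41 to -2.01 for Dmc1. For all 4, no WT Spc library reached the lowest WT Spg library, as for 29.8% of all features. Cell type markers differed too between WT Spg and WT Spc. All 10 pachytene markers were called higher in Spc, and of 10 spermatogonial markers 9 were called lower and 1 higher. Of 10 early meiotic markers 2 were called higher and 3 lower. The part of these shifts in the values of the 9 genes was not tested.

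Spo11 rose from 25.1 ± 11.4 CPM in WT Spg to 137.8 ± 11.8 CPM in WT Spc (log2 fold change 2.46, SE 0.345, edgeR adjusted p = 5.18e-05). Hsf2bp rose from 34.7 ± 9.61 to 152.4 ± 31.4 CPM (2.14, SE 0.239, edgeR adjusted p = 1.25e-05). Ankrd31 rose less, from 101.0 ± 7.29 to 181.3 ± 27.9 CPM (0.84, edgeR adjusted p = 0.00228), a call that ended under library totals (0.03, with the median of all genes at -0.76) and without any 1 of the WT Spg libraries. Meiob was 32.5 ± 11.9 CPM in WT Spg and 36.9 ± 23.7 CPM in WT Spc (0.18) and Spata22 15.96 ± 5.60 and 36.2 ± 14.5 CPM (1.18, edgeR adjusted p = 0.0136), the latter without overlap, as were the 3 genes that rose, beside 35.4% of all features higher without overlap. Per kb of exon, the order in WT Spc became Hsf2bp (42.5 ± 8.75 CPM per kb), Spo11 (35.1 ± 3.004), Ankrd31 (29.2 ± 4.49), Spata22, Meiob, Dmc1, Rec114, Prdm9 and Mei4 (0.181 ± 0.206), and the ranges of each pair of neighbours in this order overlapped.

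In KO the same stage comparison called 0 of the 9 genes with edgeR, where 2.99% of all features were called, while 4 had an unadjusted p under 0.05 and DESeq2 called 4. Hsf2bp was 31.7 ± 4.09 CPM in KO Spg and 30.4 ± 2.18 CPM in KO Spc (log2 fold change -0.06, SE 0.222), and Prdm9 was 73.8 ± 20.9 and 61.4 ± 6.46 CPM (-0.26, SE 0.528). Both genes overlapped between the stages. Meiob had the largest difference, from 31.8 ± 15.8 to 146.8 ± 45.7 CPM (2.21, SE 0.483, edgeR adjusted p = 0.0127), without overlap, and it was called when WT Spc replicate 3 or KO Spc replicate 2 was left out. Spo11 (13.3 ± 3.46 to 32.6 ± 8.65 CPM, 1.29), Spata22 (13.6 ± 4.99 to 35.2 ± 7.75 CPM, 1.37), Ankrd31 (74.2 ± 16.7 to 123.4 ± 19.6 CPM, 0.73) and Dmc1 (90.1 ± 15.6 to 120.0 ± 6.44 CPM, 0.41) also lay higher in every KO Spc library than in every KO Spg library, so that with Meiob 5 members were higher without overlap, beside 15.6% of all features. Mei4 was lower in every KO Spc library (12.8 ± 0.0757 to 5.25 ± 1.77 CPM, -1.28, edgeR adjusted p = 0.21), as were 10.6% of all features. Rec114 (19.9 ± 4.10 to 10.7 ± 6.004 CPM, -0.90) overlapped between stages. Of the cell type markers, 6 of 6 macrophage, 3 of 6 Leydig, 1 of 5 peritubular and 1 of 10 early meiotic markers were called higher in KO Spc. No marker of the other lists was called. The Leydig sum was 4.77 to 9.67 CPM in KO Spg and 57.3 to 356 CPM in KO Spc. The part of these cells in the stage differences was not tested. Per kb of exon KO Spc were led by Meiob (81.5 ± 25.4 CPM per kb) and Dmc1 (49.3 ± 2.65), whose ranges overlapped, and Mei4 was again the lowest (1.27 ± 0.430), apart from Spo11, the next above it (8.31 ± 2.21).

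**Figure D3:**
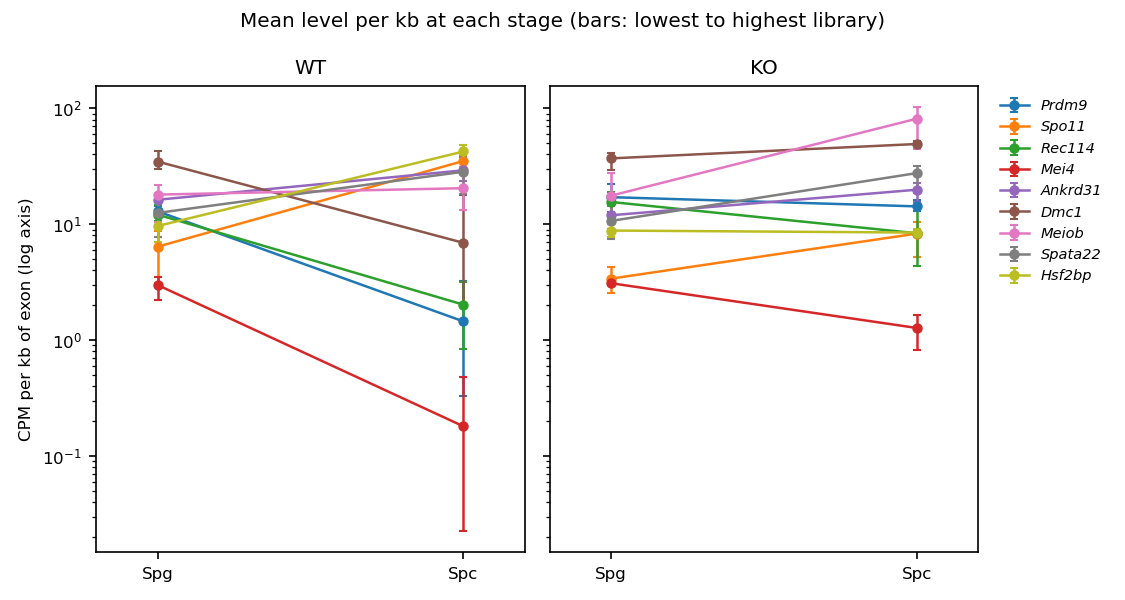
Mean CPM per kb of exon (log axis) of each gene in Spg and Spc of WT and KO, with bars from the lowest to the highest library. In WT the lines for Mei4, Prdm9, Rec114 and Dmc1 go down and those for Spo11 and Hsf2bp go up, while in KO Prdm9 and Hsf2bp are nearly level and Meiob ends the highest.

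Whether the effect of genotype was unlike at the 2 stages was tested in 1 fit over the 14 libraries. Hsf2bp (log2 difference -2.19, SE 0.318, edgeR adjusted p = 0.000302) and Prdm9 (2.89, SE 0.768, edgeR adjusted p = 0.00879) passed, beside 10.7% of all features called higher and 14.3% called lower in this test. The Hsf2bp call held in all 24 alternatives and the Prdm9 call in 13 of 24, with an adjusted p up to 0.0213. Dmc1 (2.74, adjusted p = 0.012), Meiob (2.02, adjusted p = 0.0208) and Mei4 (2.74, adjusted p = 0.0232) did not pass with edgeR, and Spo11 was at -1.16 and Rec114 at 1.68. With the replicate number of each stage as a block 6 genes passed, and without WT Spc replicate 3 the count was 5. It was 1 without KO Spg replicate 2 or 3, WT Spg replicate 1 or 3, KO Spc replicate 1, 2 or 4 or WT Spc replicate 1 or 2. Ankrd31 was at -0.11 and Spata22 at 0.19, with standard errors of 0.280 and 0.517.

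Ratios of 2 transcripts in the same library do not depend on the scaling. The levels of 7 pairs of known partners were compared per kb, between genotypes in each stage, with a two-sided exact permutation test on the log2 ratio. The pairs were chosen after their values were seen, and 6 of them are given. The smallest p that the design allows is 0.0286 in Spc and 0.1 in Spg, and over the 14 tests no adjusted p was under 0.08.

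The ratio of Meiob to Spata22 was 1.59, 1.35 and 1.36 in WT Spg and 1.84, 1.46 and 1.53 in KO Spg, higher in KO in each of the 3 same-numbered pairs of libraries, with groups that overlapped. In Spc it was 0.783, 0.36, 1.05 and 0.726 in WT and 3.04, 2.39, 2.94 and 3.20 in KO. The genotypes were apart, by 2.08 on the log2 scale (exact permutation p = 0.0286, adjusted p = 0.08, n = 4 and 4). Spo11 to Gm960, the gene of its TOPOVIBL partner, was 47.5, 17.7, 10.1 and 40.8 in WT Spc and 2.66, 0.955, 2.41 and 4.13 in KO Spc (difference -3.43, exact permutation p = 0.0286, adjusted p = 0.08). In Spg this ratio was 1.24, 1.59 and 0.594 in WT and 1.22, 0.5435 and 0.559 in KO. It was lower in KO in 3 of 3 same-numbered pairs, with groups that overlapped (exact permutation p = 0.2). Rec114 to Ankrd31 was higher in KO without overlap at both stages, by 2.68 in Spc (exact permutation p = 0.0286, adjusted p = 0.08) and by 0.83 in Spg (exact permutation p = 0.1, adjusted p = 0.2).

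Of the 6 pairs, Hsf2bp to 4930432K21Rik, the gene of its binding partner BRME1, stayed closest, between 0.661 and 1.00 in all 14 libraries, although both transcripts were several times lower in KO Spc (4930432K21Rik 19.2 to 25.4 CPM in KO and 81.9 to 176 CPM in WT). Its difference was 0.27 in Spc (exact permutation p = 0.143) and 0.02 in Spg (exact permutation p = 0.8), with groups that overlapped. Rec114 to Mei4 was 44.1, 24.7, 6.61 and 9.10 in WT Spc, where Mei4 had at most 83 counts, and 5.60, 8.48, 6.46 and 4.35 in KO Spc, and overlapped (exact permutation p = 0.0571, adjusted p = 0.133). In Spg this ratio was 3.33, 4.85 and 4.21 in WT and 4.02, 4.92 and 6.14 in KO. It was higher in KO in 3 of 3 same-numbered pairs, with groups that overlapped (exact permutation p = 0.4). The last pair, Psmc3ip to Mnd1, whose products form a complex that assists DMC1, was 7.34 to 58.2 in WT Spc and 1.86 to 3.90 in KO Spc (difference -3.57, exact permutation p = 0.0286, adjusted p = 0.08).

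**Figure D4:**
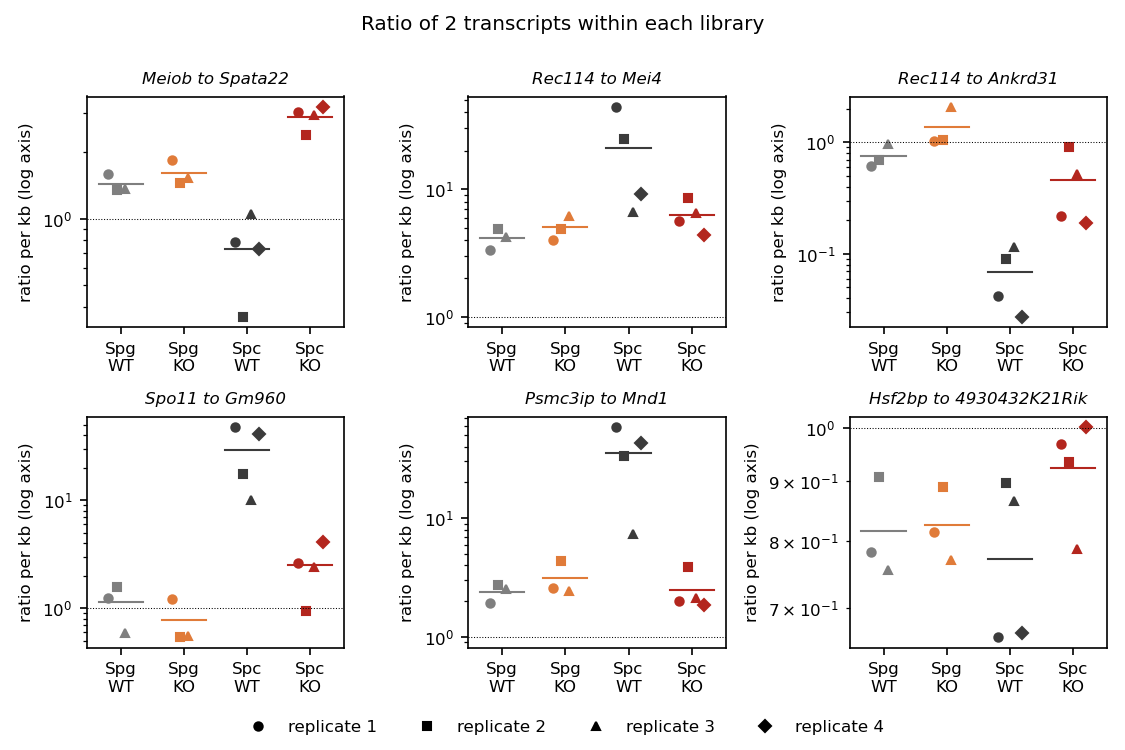
Ratio per kb (log axis) of 2 transcripts in each library for 6 pairs; symbols mark the replicate, lines the mean, and the dotted line a ratio of 1. Meiob to Spata22, Spo11 to Gm960 and Psmc3ip to Mnd1 are apart between WT and KO Spc, while Hsf2bp to 4930432K21Rik lies between 0.661 and 1.00 throughout.

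For each member, the 3 genes with the most similar pattern were taken as those with the highest Pearson r of log2(CPM + 0.5) over the 14 libraries, among 16918 genes, as a description in which all genes share the libraries. Prdm9 was followed by Gm4969 (the meiotic entry gene Meiosin, r = 0.997), Gm7972 and Eml5, and Spo11 by Gm10209 (0.995), Sox30 and Spdya. Rec114 was followed by Fbl (0.996), Nme4 and Ppil1, Mei4 by Uhrf1bp1 (0.994), Arhgef26 and Ripk4, and Dmc1 by Ofd1 (0.994), Las1l and Pts. Hsf2bp was followed by Gm6526 (0.995), Gm31816 and Dpp10. Ankrd31 and Meiob had less close companions, Slf1 (0.965), Sycp2 and Cep290 for the first and Yae1d1 (0.955), D030051J21Rik and Tmem62 for the second. The closest to Spata22 was Gm49340 (0.992), which shares its exons, then Aspa and Mcmdc2.

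Copies of transposable elements (TE) inside the 9 genes were placed from the deposited table of TE copies, in transcripts per 1000000 (TPM) over all copies. The genes hold 1284 copies, 495 on the strand of the gene and 789 on the opposite strand. In Spg 62.0% of the same-strand copies and 9.89% of the opposite-strand copies were above 0 in at least 1 library, and in Spc 54.9% and 14.1%. Of 215 copies tested in Spg, 0 were called by limma (0.00911% of all copies tested were called) and 11 had an unadjusted p under 0.05. Of 179 tested in Spc 21 were called, near the 11.2% of all copies, 18 higher in KO and 3 lower. Over all copies tested 7.17% were called higher and 4.06% lower, so higher calls were also the more frequent there. The count was 40 without WT replicate 3, 12 without KO replicate 1 or WT replicate 1 or 4, and 13 without KO replicate 3 or 4. On the gene's strand all 16 copies called were higher in KO, 9 of them in Dmc1, 3 in Meiob, 3 in Prdm9 and 1 in Ankrd31. The 5 called copies with the largest change were 4 in introns of Dmc1 (B1_Mur1, B4A, B3 and B1_Mur4 copies, means of 15.5 to 44.4 TPM in KO and 0 to 0.873 TPM in WT) and, lower in KO, a MIRc copy opposite to Rec114 (listed at 0 in all KO libraries, 5.74 to 22.4 TPM in WT).

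Summed over the intronic copies on its strand (TPM times the copy's length in kb), each gene gave an intronic signal, in which RNA of the gene and RNA started in the copies cannot be told apart. From WT to KO Spc the sum changed by 13.2 times for Prdm9, 10.9 times for Mei4, 10.3 times for Dmc1, 9.74 times for Rec114, 4.29 times for Meiob, 2.75 times for Ankrd31, 1.74 times for Spata22, 0.483 times for Spo11 and 0.418 times for Hsf2bp. The groups overlapped for Spata22 and Spo11. No share over other genes was made for such sums. For counts, 33.7% of all features were higher and 33.8% lower in KO Spc without overlap, so separation was common. TPM are relative to all TE copies of a library, so the sum and the gene count are on different scales and only differences between genes can be read. For all 9 genes the ratio of KO to WT was larger for the sum than for the gene count, by 1.08 times for Meiob, 1.34 times for Prdm9, 1.45 times for Dmc1, 1.54 times for Mei4, 1.79 times for Spata22, 2.04 times for Spo11, 2.09 times for Hsf2bp, 2.36 times for Rec114 and 4.03 times for Ankrd31. Ankrd31 stood farthest from the others, with a sum of 16.2 ± 10.6 in WT and 44.4 ± 9.45 in KO, without overlap. These ratios use means over all libraries. WT Spc replicate 3 had a sum of 3.98 for Prdm9, against 0.240 to 0.924 in the rest of WT, and of 23.5 for Dmc1, against 1.24 to 5.36. How the ratios depend on this library was not tested.

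An L1Md_T copy, of a young family of mouse LINE-1 elements, lies in an intron of Mei4 on the opposite strand, at chr9:81930396-81937243 in the coordinates of the table, 6.85 kb long. It was chosen after its values were seen. It was listed at 0 in all 4 WT Spc libraries and at 8.12, 3.28, 4.38 and 10.7 TPM in KO Spc, and at 0, 0 and 0.0159 TPM in WT Spg and 3.78, 1.36 and 0.903 TPM in KO Spg. The copy was thus read almost only in KO, at both stages, called in Spc (limma on log2(TPM + 0.1), adjusted p = 0.000769) and not in Spg (adjusted p = 0.784). A second L1Md_T copy in Mei4, at chr9:82127673-82133929 and 6.26 kb long, was at 0.708 to 2.46 TPM in KO Spc and 0 to 0.0767 TPM in WT Spc (adjusted p = 0.0105). In Spg its genotypes overlapped, at 0.897, 0.427 and 0.1235 TPM in KO and 0.162, 0.0388 and 0 TPM in WT. Another L1Md_T copy in Mei4, of 0.881 kb, was at 0 in all Spg and WT Spc libraries and at 0 to 0.243 TPM in KO Spc. A copy of 0.737 kb opposite to Rec114, at chr9:58686269-58687006, was listed at 0 in all WT libraries and at 3.39 to 6.54 TPM in KO Spc (adjusted p = 0.000845) and 0.794 to 3.81 TPM in KO Spg. Reads of near-identical L1 copies were divided among them by the authors' tool, so the value of a single copy is uncertain. The summed signal of Mei4 introns on the gene's own strand was 3.89 to 5.94 in WT Spg and 9.66 to 11.6 in KO Spg, apart between genotypes, while the Mei4 gene count overlapped. Mei4 was the 1 gene of the 9 whose sum did not overlap in Spg, and it was singled out after its values were seen. The sums were made for these 9 genes alone, so no share over other genes can be set beside it. With 3 against 3 libraries, groups without overlap give p = 0.1 at best in an exact permutation test.

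**Figure D5:**
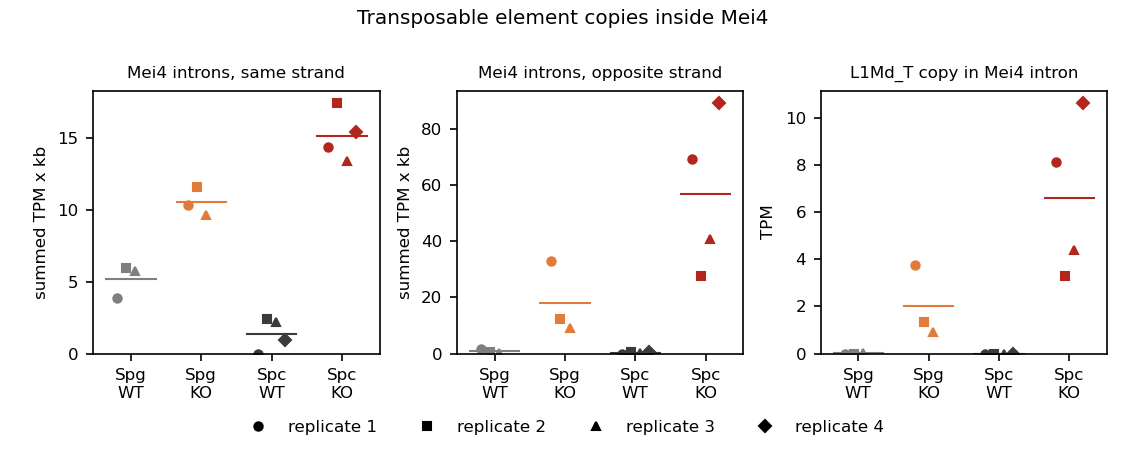
TE copies inside Mei4 in each library: summed intronic TPM times kb on the strand of the gene and on the opposite strand, and TPM of the L1Md_T copy of 6.85 kb; symbols mark the replicate and lines the mean. The opposite-strand signal is near 0 in WT at both stages and is led in KO by that copy, which reaches 10.7 TPM in KO Spc.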

How the data were processed

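Per the labels, stranded libraries of polyadenylated RNA were sequenced from sorted germ cells. The authors trimmed reads with cutadapt 4.0, aligned them with STAR 2.7.3a to GRCm38 with the GENCODE M25 annotation, allowing up to 100 alignments per read, and deposited raw read counts per gene and TE subfamily from TEtranscripts, which shares multi-mapped reads among features, one table per stage. The authors also deposited TPM per TE copy from TElocal, in which depth is unknown. The submitters list DESeq2 1.44.0; only the counts and TPM were used. One further Spg library per genotype was left out by the authors for RNA quality, and the third Spg libraries here carry the number 4 in the tables.

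Counts were filtered with filterByExpr, scaled by TMM over genes and TE subfamilies and tested with the edgeR 4.0.16 quasi-likelihood test (R 4.3.3), per stage for genotype and in 1 fit of 4 groups for stage and interaction, called at an adjusted p below 0.01 over all features tested. Fold changes have SE = |log2 fold change| / √F. TE copies with a mean of at least 0.5 TPM were tested with limma 3.58.1 on log2(TPM + 0.1), a scale that understates changes of low copies. Pair ratios used SciPy 1.17.1. The fits were tested on simulated data. Alternatives were DESeq2 1.42.0, other scalings and filters, left-out libraries, Spc replicates 1 and 4 summed, and a replicate block. Same-numbered Spg libraries deviated together (r = 0.72, 0.191 and 0.29), which is taken as pairing because every r was over 0.1. However, KO Spg replicate 2 was most like WT replicate 3, and WT Spg replicate 3 was most like KO replicate 2. Only for replicate 1 was the same-numbered library the best match on both sides, so the pairing of the others is uncertain. In Spc 2 of 4 values of r were over 0.1 (0.085, 0.237, -0.02 and 0.138), which is not taken as pairing. Pair ratios were tested without pairing. Animals behind replicates are not named, so p-values measure the spread between these samples.

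The members and lists were chosen with earlier results of these data known. Named genes were all 9 members, Dnmt3c, of the pathway list the called gene with the largest rise and fall per role, the 3 genes most similar to each member, the most abundant markers and the 5 called TE copies with the largest change. Exon lengths came from GENCODE M21, in which all 9 gene identifiers had the same version as in the tables. Results for 1 of the pairs and 1 gene of the pathway list named by this rule are not reported here.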

Additional observations from a re-analysis of the deposited data

Results flagged for a closer look

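Among the 9 genes in 18 Spc groups tested, 3 values lay far from the other 3 samples of their group by Dixon's test, where chance flags about 1 group in 20. Meiob was 72.4 CPM and Hsf2bp 105.7 CPM in WT Spc replicate 3, the first above and the second below the rest of WT, and Spata22 was 23.8 CPM in KO Spc replicate 2, below the rest of KO. A pair of genes had genotype effects that differed between the stages by the interaction test: Prdm9, with a difference of 2.89 on the log2 scale, and Hsf2bp, with a difference of -2.19.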

How the results depend on the processing

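In Spg, 0 of the 9 genes were called under every alternative run, and in WT the count of 7 between stages ran from 6, under library totals or without any 1 WT Spg library, to 8. In Spc the count of 7 became 4 when replicates 1 and 4 were summed, which ended the calls of Mei4, Rec114 and Meiob, and was 5 to 7 with 1 library left out. Between stages in KO the count of 0 became 4 with DESeq2, 1 with DESeq2 size factors, 4 at an adjusted p under 0.05, and 0 to 1 with 1 library left out. The count of 2 for the difference between stages became 4 with DESeq2, 6 at an adjusted p under 0.05, 1 with Spc replicates 1 and 4 summed, and 1 to 5 with 1 library left out. With the replicate block it was 6, which added Dmc1, Meiob, Mei4 and Rec114. The 21 TE copies called in Spc became 9 with the replicate block and 12 to 40 with 1 library left out. The causes were not tested.

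Directions turned only for genes with small changes. Library totals moved all genes alike, to medians of 0.79 in Spc, -0.76 between WT stages and 0.90 for the stage difference, so that the signs under it are those of the scaling: Ankrd31 in Spc was at 0.15 and Spata22 at 0.61, both below that median, Meiob between WT stages was at -0.53, above it, and the stage difference of Ankrd31 was at 0.61, below it. Spata22 in Spc was also at 0.0039 with TMM on genes alone, 0.057 at a mean count of at least 50, 0.047 with the replicate block, 0.11 joined with Gm49340, 0.32 without WT replicate 3 and KO replicate 2, and -0.19 to 0.17 with 1 library left out, and its stage difference was -0.057 with Spc replicates 1 and 4 summed. With 1 library left out, the Spg values ran from -0.13 to 0.13 for Mei4, -0.0298 to 0.22 for Dmc1, -0.53 to 0.17 for Meiob and -0.37 to 0.0823 for Hsf2bp, Meiob between WT stages from -0.36 to 0.36, and the stage difference of Ankrd31 from -0.21 to 0.12. Of the alternatives for single genes, 856 kept direction and side of the threshold, 38 passed it anew, 29 lost it and 28 turned. DESeq2 gave no adjusted p for Dmc1 in the fit of 14 libraries. In WT Spc, Mei4 had 3 to 83 counts, which limits its precision.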
